A study of Mus musculus with 26 samples.

Results

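The genes described here are 10 enteroendocrine hormones and regulators, namely Chga, Chgb, Tac1, Cck, Gcg, Gip, Sct, Sst, Pyy and Neurod1. They were taken by gene name, in upper case for human, from 3 tables of RNA sequencing counts. All 10 were listed among the 40481 genes of the mouse spheroid and crypt tables and among the 55093 genes of the Caco-2 table. The study asks what follows in the intestinal epithelium when Fgfr1op, which encodes a centrosome protein, is lost. Crypt-enriched small intestine came from Fgfr1op KO mice (6 libraries) and wt mice (6 libraries), written WT below, and both genotypes received tamoxifen and were sampled at day 6 or day 9. Small intestinal spheroids, which are epithelial cultures in Matrigel with 50% L-WRN conditioned medium, came from Fgfr1op KO mice (4 libraries) and WT mice (4 libraries), at day 3 after 250 nM hydroxytamoxifen. Caco-2, a human colorectal cancer line with enterocyte features, carried a doxycycline-inducible hairpin against Fgfr1op (shFgfr1op, 3 libraries) or a scramble hairpin (3 libraries), at day 3 after doxycycline. The sources used here name no recombinase driver, deleted exons, strain or age for the mice.

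Enteroendocrine cells are scattered secretory cells of the gut epithelium that sense nutrients, microbial products and mechanical stimuli and release peptide hormones and serotonin at their basal side. They arise from crypt progenitors in which Notch signalling is low and the transcription factor Neurog3 is transiently expressed, after which factors such as Neurod1 and Pax4 act and each cell comes to express a restricted set of hormones. The hormones are made as precursors, cut by prohormone convertases and packed with granins into dense-core granules. The granins Chga and Chgb are general markers of such granules. Tac1 encodes substance P and marks serotonin-producing enterochromaffin cells. Cck stimulates bile and pancreatic enzyme release, Gcg yields the glucagon-like peptides in L cells, Gip is the incretin of K cells, Sct encodes secretin, Sst encodes the inhibitory hormone somatostatin of D cells, and Pyy is a satiety peptide of L cells.

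Summed over genes, the counts of a library were 48068740 to 88869286 in crypt KO, 49536700 to 103352863 in crypt WT, 51459939 to 63981065 in spheroid KO, 44152608 to 67630241 in spheroid WT, 37281821 to 43876634 in Caco-2 shFgfr1op and 37989227 to 50965004 in Caco-2 scramble. Levels are given as CPM, each count relative to its library total after TMM scaling. The deposited crypt columns show the genotype, a running number and a further number, but not the day, so days 6 and 9 were pooled within each genotype. The further numbers fall into a lower run (5 columns, KO columns 1 to 3 and WT columns 1 and 2) and an upper run (7 columns, KO columns 4 to 6 and WT columns 3 to 6). The sources used here do not say what these numbers stand for, and the split by run was chosen after the data were seen. By the sample labels each genotype had 3 libraries per day. The 4 WT columns of the upper run therefore cannot all be of the same day. As no column shows its day, a difference between the runs cannot be told apart from a difference between days. KO columns 4 to 6 stood apart from the other 9 crypt libraries on the leading principal component (56.0%), at 101.7 to 124.3 against -64.4 to 5.16. Fgfr1op itself averaged 21.1 ± 5.22 CPM in KO crypts and 32.9 ± 6.27 CPM in WT crypts (SD, n = 6 each; log2 fold change -0.65 ± 0.19 SE, edgeR adjusted p = 0.0261). Within the lower run the log2 fold change of Fgfr1op was -0.82 ± 0.35 and did not pass (edgeR adjusted p = 0.573). Within the upper run it was -0.52 ± 0.16 (edgeR adjusted p = 0.0278). In spheroids its log2 fold change was -0.42 ± 0.095 and did not pass (edgeR adjusted p = 0.117), and in Caco-2 it was -1.20 ± 0.094 (edgeR adjusted p = 1.65e-14).

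In the crypt columns of the upper run, Gip, Gcg, Sst, Chga, Neurod1, Pyy and Chgb fell in KO, by 7.61-fold for Gip and 1.73-fold for Chgb, while Tac1, Cck and Sct did not pass the test. Those 7 of 10 stand beside 41.1% of all genes called in that run, and 21.3% called as lower. The split by run was chosen after these libraries were seen, and p-values within a run do not allow for that choice. In the lower run 0 of the 10 genes passed, where 0.156% of all genes were called. With both runs pooled, 0 of 10 passed. With the run of column numbers as a term in the pooled fit, 5 of 10 passed, each lower in KO: Gip (log2 fold change -1.97, edgeR adjusted p = 0.00401), Sst (-1.67, 0.0108), Gcg (-1.26, 0.0106), Chga (-1.15, 0.0469) and Neurod1 (-1.05, 0.00325). The pooled adjusted p-values ran from 0.0731 to 0.714 by edgeR's quasi-likelihood test with Benjamini-Hochberg adjustment over the 16413 genes tested, of which 24.5% were called. At an unadjusted p below 0.05 there were 3 members (Gcg, Gip and Neurod1). DESeq2 called 2 (Gip and Neurod1), and limma voom with sample quality weights called 7. For DESeq2, voom and the run as a term, here and below, the share of all genes called is not given. Their counts are therefore not read as a result about these 10 genes. The fit with the run as a term takes the KO effect to be the same in both runs. The test of the difference between runs, given below, passed for Gip, Gcg and Sst. The median log2 fold change of the 10 genes was -0.44, beside 0.05 over all genes tested. In whole tissue RNA, fewer cells of a type and less RNA per cell cannot be told apart.

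**Figure D1:**
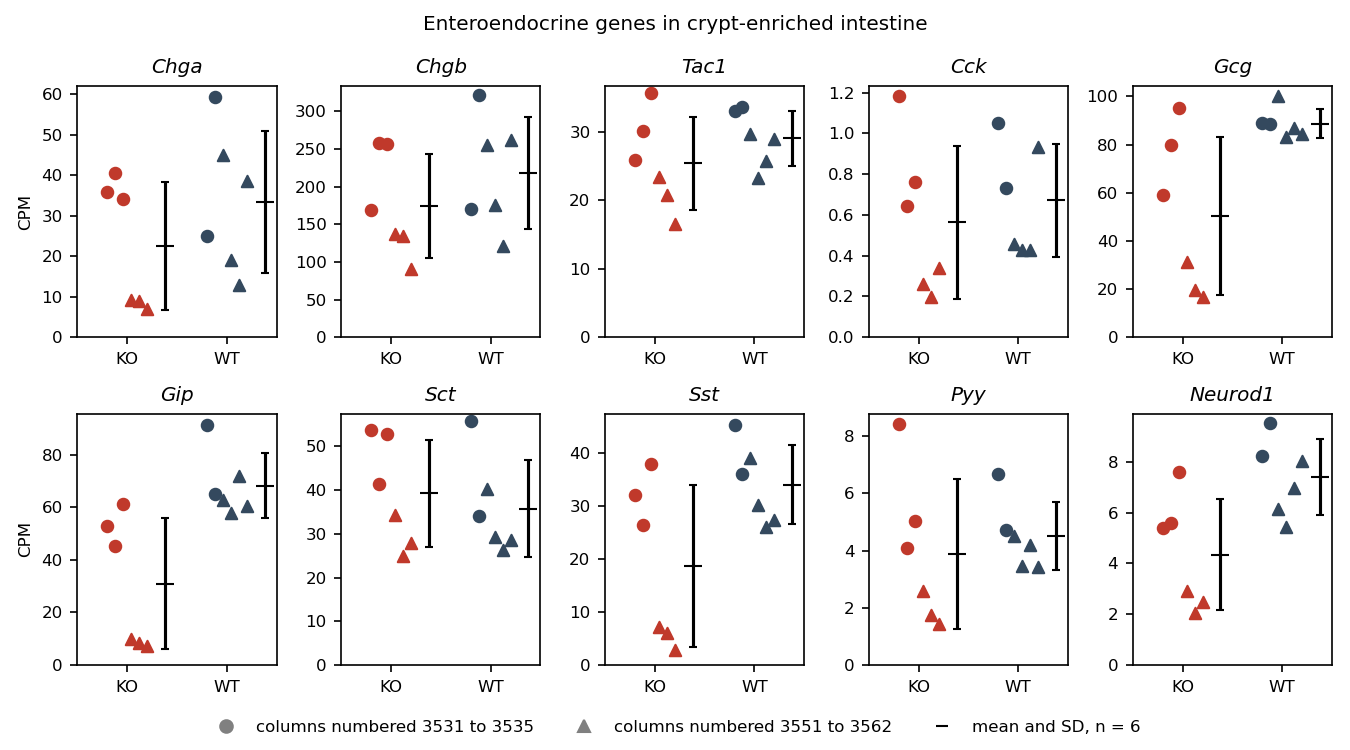
CPM of each of the 10 genes in KO (left) and WT (right) crypt libraries, with circles for the lower run of column numbers, triangles for the upper run, and bars for the mean and SD over 6 libraries. The KO triangles lie below every other point for Gip, Gcg, Sst, Neurod1, Pyy, Chga and Cck. For Sct, 1 KO triangle is the lowest point and the other two lie among the other points.

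The sequences just before the start sites of Gip, Gcg and Sst are shown because these 3 hormone genes had the largest falls in KO within the upper run. Each is 250 bases from RefSeq (GRCm38.p6), read 5′ to 3′ on the strand of the gene. Gip lies at chr11:96024295-96024544 on the plus strand, Gcg at chr2:62483654-62483903 on the minus strand and Sst at chr16:23890845-23891094 on the minus strand. The genes themselves, in mm10 by GENCODE M21, are Gip (ENSMUSG00000014351, chr11:96024545-96030831), Gcg (ENSMUSG00000000394, chr2:62474530-62483650) and Sst (ENSMUSG00000004366, chr16:23889573-23890958). Capitals mark the cAMP response element TGACGTCA, the E box CAGATG or its reverse complement CATCTG, which NeuroD1 can bind together with an E protein, and the TATA box TATAAA or its reverse complement TTTATA.
Gip: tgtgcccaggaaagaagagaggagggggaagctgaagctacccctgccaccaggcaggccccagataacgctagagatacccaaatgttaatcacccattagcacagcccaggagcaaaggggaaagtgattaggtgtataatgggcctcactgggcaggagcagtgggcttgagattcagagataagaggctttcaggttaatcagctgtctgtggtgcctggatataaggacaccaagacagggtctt
Gcg: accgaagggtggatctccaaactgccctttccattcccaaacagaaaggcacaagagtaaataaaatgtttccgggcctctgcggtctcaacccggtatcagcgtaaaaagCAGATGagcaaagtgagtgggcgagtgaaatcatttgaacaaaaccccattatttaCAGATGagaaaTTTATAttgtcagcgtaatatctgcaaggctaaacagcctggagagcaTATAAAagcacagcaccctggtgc
Sst: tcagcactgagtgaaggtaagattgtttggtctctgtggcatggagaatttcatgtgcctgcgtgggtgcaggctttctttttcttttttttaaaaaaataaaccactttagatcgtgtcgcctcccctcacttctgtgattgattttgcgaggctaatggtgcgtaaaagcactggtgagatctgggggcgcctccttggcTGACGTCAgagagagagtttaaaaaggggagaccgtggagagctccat
The Gcg window held CAGATG at -139 and -83 and TATA letters at -72 and -24, counted from the start site. The Sst window held the cAMP response element at -48, and in the Gip window 0 of these letters were found. On both strands, 14.4% of 32851 RefSeq promoter windows of the same length held CAGATG or CATCTG, 1.55% held TGACGTCA and 12.4% held TATAAA or TTTATA. Among the other members, Chgb held the cAMP response element, at -72, Tac1, Cck and Sct held CAGATG or CATCTG, and Sct held TATA letters. The general E box CANNTG, of which CAGATG is 1 form, was in the windows of each of the 10 members and in 66.2% of all windows.

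Gip showed the widest gap. KO columns 4 to 6 had 9.92, 8.48 and 7.24 CPM, against 62.8, 58.0, 72.1 and 60.6 CPM in WT columns 3 to 6. KO columns 1 to 3 had 52.9, 45.4 and 61.4 CPM, against 91.4 and 65.0 CPM in WT columns 1 and 2. The KO libraries were therefore the lower ones in both runs, without overlap, but by much less in the lower run. That run holds only 3 KO and 2 WT libraries. The share of all genes without overlap within a run is not given, here and below. Separation within a run is therefore not read as particular to these genes. Within the upper run the log2 fold change of Gip was -2.93 ± 0.17 (SE; edgeR adjusted p = 1.33e-06), and within the lower run it was -0.56 ± 0.26 and did not pass (edgeR adjusted p = 0.627).

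Gcg, the source of the glucagon-like peptides, had 31.4, 19.5 and 16.8 CPM in KO columns 4 to 6, against 100.2, 83.0, 87.0 and 84.4 CPM in WT columns 3 to 6. Among lower-run columns it had 59.0, 79.6 and 95.2 CPM in KO, against 89.0 and 88.6 CPM in WT. WT libraries varied little and KO libraries spanned a wide range, with KO column 3 inside the WT range. The log2 fold change was -2.02 ± 0.22 in the upper run (edgeR adjusted p = 6.82e-05) and -0.19 ± 0.26 in the lower run (edgeR adjusted p = 0.880).

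Sst, the somatostatin gene, had 7.08, 5.96 and 2.75 CPM in KO columns 4 to 6, against 39.2, 30.3, 26.1 and 27.4 CPM in WT columns 3 to 6. KO columns 1 to 3 had 32.2, 26.4 and 37.9 CPM, against 45.4 and 36.1 CPM in WT columns 1 and 2. The groups were apart in the upper run and overlapped in the lower run. The log2 fold change was -2.59 ± 0.32 (edgeR adjusted p = 1.64e-04) in the upper run and -0.34 ± 0.28 (edgeR adjusted p = 0.792) in the lower run.

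Neurod1, the transcription factor of early enteroendocrine differentiation, had 2.90, 2.05 and 2.49 CPM in KO columns 4 to 6, against 6.14, 5.43, 6.98 and 8.04 CPM in WT columns 3 to 6. In the lower run it had 5.40, 5.60 and 7.59 CPM in KO, against 8.24 and 9.52 CPM in WT. KO lay below WT in each run, without overlap, though the lower run has only 3 KO and 2 WT libraries. Over both runs, 4 of 6 KO libraries were below the lowest of the 6 WT libraries. Its log2 fold change was -1.46 ± 0.22 in the upper run (edgeR adjusted p = 4.63e-04) and -0.52 ± 0.33 in the lower run (edgeR adjusted p = 0.724).

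Of the granins, Chga had 9.29, 8.88 and 6.87 CPM in KO columns 4 to 6, against 45.1, 19.1, 12.8 and 38.7 CPM in WT columns 3 to 6. WT libraries differed among themselves but stayed above KO, and the log2 fold change was -1.84 ± 0.43 (edgeR adjusted p = 0.00777). The Chga call was not kept in every alternative fit of that run. Over the edgeR, DESeq2 and voom fits its adjusted p reached 0.0585. Lower-run Chga was at 35.9, 40.5 and 34.2 CPM in KO, inside the WT values of 25.1 and 59.4 CPM. Chgb had 137, 135 and 91.0 CPM in those KO columns, against 255, 176, 121 and 262 CPM in WT, and these groups overlapped. Its log2 fold change of -0.79 ± 0.28 was just past the threshold (edgeR adjusted p = 0.0433). The Chgb call was lost in 5 of the 7 fits that left out 1 library, among them the fit without KO column 6 (log2 fold change -0.60, edgeR adjusted p = 0.163).

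Pyy had 2.57, 1.74 and 1.41 CPM in KO columns 4 to 6, against 4.52, 3.45, 4.20 and 3.44 CPM in WT columns 3 to 6, a log2 fold change of -1.07 ± 0.26 without overlap (edgeR adjusted p = 0.00773). Lower-run Pyy was at 8.42, 4.09 and 5.05 CPM in KO, against 6.69 and 4.71 CPM in WT, and the groups overlapped. Tac1 (-0.45 ± 0.17, edgeR adjusted p = 0.0522), Cck (-1.11 ± 0.46, 0.0777) and Sct (-0.14 ± 0.19, 0.600) did not pass there. Sct stood out by its level, with 34.4, 25.0 and 28.0 CPM in KO columns 4 to 6, against 40.4, 29.3, 26.2 and 28.6 CPM in WT columns 3 to 6, and the groups overlapped. Cck was low throughout, at 0.197 to 1.18 CPM in KO crypts and 0.426 to 1.05 CPM in WT crypts.

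In the upper run, 7 of 10 members passed and each was lower, among 16886 genes tested. The median log2 fold change of the members was -1.29, beside 0.00025 over all genes there. DESeq2 called 7 in that run and voom 9. In the lower run 0 of 10 passed by edgeR and 0 had an unadjusted p below 0.05. The members' median there was -0.16. When KO columns 1 to 3 were set against all 6 WT columns, 0 of 10 passed and 0 had an unadjusted p below 0.05, beside 5.46% of 16924 genes called, and the members' median was 0.07. The difference itself was tested as the KO effect in the upper run minus that in the lower run. It passed for 3 of 10 members, with 7.41% of 16413 genes called and 4.6% called as lower: Gip (-2.34 ± 0.29, edgeR adjusted p = 1.63e-04), Gcg (-1.79 ± 0.34, 0.00406) and Sst (-2.21 ± 0.43, 0.00483). It did not pass for Neurod1 (-0.90 ± 0.36, 0.157), Chga (-1.60 ± 0.62, 0.157) or Pyy (-1.07 ± 0.46, 0.194), nor for Cck, Chgb, Tac1 and Sct. The split by run was chosen after these same libraries were seen, and the p-values by run and of the difference do not allow for that choice.

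**Figure D2:**
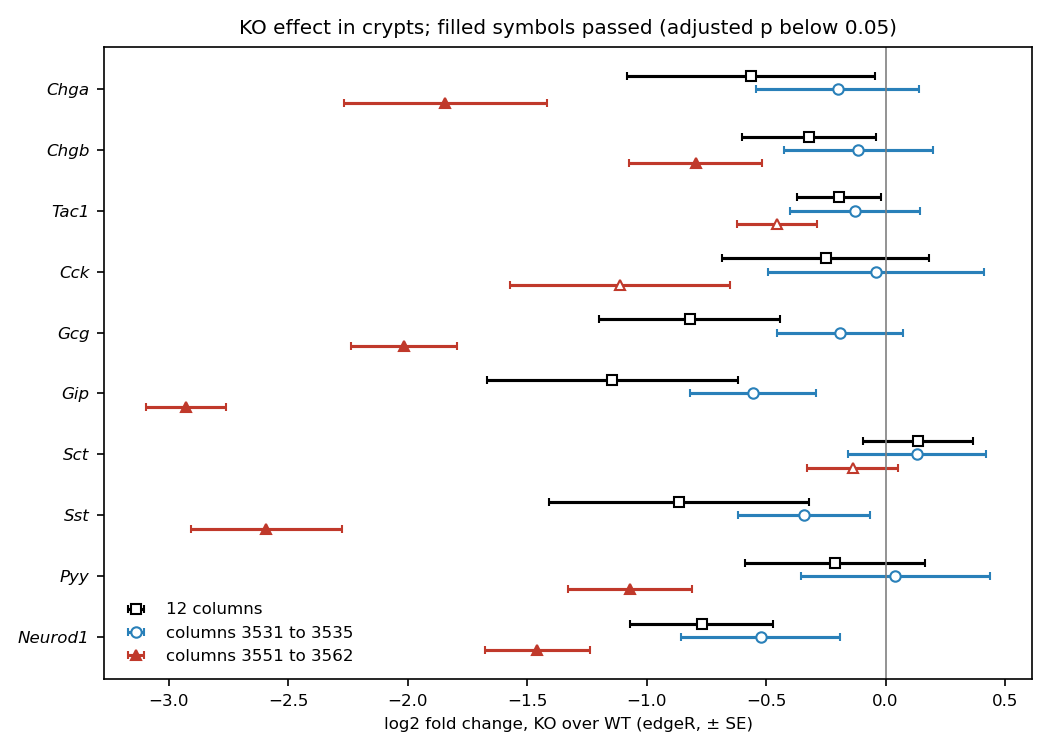
Log2 fold change of KO over WT for each gene, with SE bars, in all 12 crypt columns (squares), in the lower run of column numbers (circles) and in the upper run (triangles); filled symbols passed at an adjusted p below 0.05. The filled symbols are all triangles, and the circles lie between -0.56 and 0.13.

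Over all crypt columns, Gip ranged from 7.24 to 61.4 CPM with a median of 27.7 in KO and from 58.0 to 91.4 CPM with a median of 63.9 in WT. Gcg ranged from 16.8 to 95.2 CPM with a median of 45.2 in KO and from 83.0 to 100.2 CPM with a median of 87.8 in WT. Both genes thus had 5 of 6 KO libraries below the lowest WT library. For Sct the median was 37.9 CPM in KO (25.0 to 53.9) and 31.7 CPM in WT (26.2 to 55.9), and for Tac1 it was 24.6 CPM in KO (16.5 to 35.7) and 29.3 CPM in WT (23.3 to 33.7). Those 2 genes overlapped broadly. Of the 10 members, 0 had pooled groups without overlap, where 10.6% of genes tested did. Leaving out KO column 3 gave 2 members called (Gcg at -1.14, edgeR adjusted p = 0.0331, and Neurod1 at -1.04, edgeR adjusted p = 0.0169).

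Other enteroendocrine genes were followed as 6 further lists, whose untested genes were below the filter on low counts. In the lower run 0 genes of these lists passed. Their counts are to be read beside the share of all genes called, which was 24.5% in pooled crypts (14% as higher and 10.5% as lower) and 41.1% in the upper run (19.8% as higher and 21.3% as lower). Among 20 tested transcription factors of the lineage, 3 fell and 1 rose in pooled KO crypts. The falls were Rfx6 (1.39 ± 0.52 CPM in KO, 3.26 ± 0.78 CPM in WT; log2 fold change -1.24 ± 0.26), which acts in endocrine progenitors and hormone expression, Isl1 (-0.88 ± 0.24) and Myt1 (-1.25 ± 0.35). Foxa1, also expressed outside the endocrine lineage, rose to 6.61 ± 2.63 CPM in KO, against 2.20 ± 0.57 CPM in WT (1.59 ± 0.29). In the upper run 9 of the 20 fell and 2 rose, with Pax4, a factor of enteroendocrine and beta cell fate, at -2.98 ± 0.40 and Lmx1a, a factor of enterochromaffin cells, at -2.52 ± 0.34. The KO effect was lower in the upper than in the lower run for Pax4, Lmx1a and St18 by the test of the difference (-2.71 ± 0.57, -2.11 ± 0.48 and -2.35 ± 0.62; edgeR adjusted p = 0.00794, 0.0118 and 0.0280).

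Of 28 tested genes of granules, processing and excitability, 4 fell and 1 rose in pooled KO crypts, a smaller share than the 24.5% of all genes called. Pcsk1, the prohormone convertase that cuts proglucagon and pro-GIP, fell to 8.57 ± 1.99 CPM in KO, against 15.9 ± 1.59 CPM in WT (-0.89 ± 0.16, edgeR adjusted p = 0.00293). Rph3al, a Rab effector of granule exocytosis (10.8 ± 5.25 CPM in KO, 21.6 ± 4.87 CPM in WT), and the sodium channel Scn3a (-1.07 ± 0.34) fell as well, while the sulfonylurea receptor Abcc8 rose (1.02 ± 0.34). Pcsk1 was also lower when KO columns 1 to 3 alone were set against all WT columns (-0.75 ± 0.21, edgeR adjusted p = 0.0477). It was the 1 gene called there of 28 tested in its list, beside 5.46% of all genes. Within the upper run 14 of 27 fell and 2 rose, with the secretory GTPase Rab3c at -3.66 ± 0.34 and Aplp1 at -2.14 ± 0.28. The summed CPM of the list was nearly level in that run, at 169 to 205 in KO against 162 to 199 in WT.

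Serotonin genes had 4 of 8 falls and 1 rise in pooled KO crypts. The vesicular amine transporters Slc18a1 and Slc18a2 fell by 0.59 ± 0.15 and 0.61 ± 0.16 on the log2 scale, and the amine oxidase Maoa, which enterocytes also express, fell by 0.82 ± 0.23. Gch1, which makes a cofactor of serotonin synthesis, rose by 1.28 ± 0.27. In the upper run 7 of 8 fell and 1 rose, led by Slc6a4, the serotonin transporter of the epithelium, at 10.6 ± 5.27 CPM in KO (-4.36 ± 0.38). Slc6a4 was also lower with KO columns 1 to 3 alone against all WT columns, at 97.3 ± 26.8 CPM in KO and 198 ± 42.1 CPM in WT (-1.02 ± 0.22, edgeR adjusted p = 0.0158). Its KO effect was lower in the upper than in the lower run (-3.50 ± 0.49, edgeR adjusted p = 5.78e-04). With KO columns 1 to 3 against all WT columns, 5.46% of all genes were called. Beside Pcsk1 and Slc6a4, 1 of 21 tested lineage factors and 1 of 16 tested sensors were higher there, and 1 of 9 other hormones was lower.

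Among 16 tested nutrient and microbial product sensors, 1 fell and 1 rose in pooled KO crypts, again a smaller share than over all genes. Gper1, an oestrogen-responsive receptor, was at 1.60 ± 1.59 CPM in KO and 9.24 ± 4.81 CPM in WT (-2.53 ± 0.77). The long-chain fatty acid receptor Ffar4, which other epithelial cells also express, rose to 11.6 ± 13.1 CPM in KO (range over libraries 1.27 to 34.7), against 0.512 ± 0.20 CPM in WT (4.47 ± 0.87). In the upper run 8 of 16 fell and 2 rose, with Ffar4 at 5.40 ± 0.41, the irritant channel Trpa1 at -4.35 ± 0.53 and the short-chain fatty acid receptor Ffar3 at -3.99 ± 0.52. Other gut hormones had 1 fall of 8 tested, Ucn3 (0.426 ± 0.41 CPM in KO, 1.85 ± 0.58 CPM in WT; -2.11 ± 0.61). Within the upper run 5 of 8 fell and 1 rose, with neurotensin (Nts) at -2.17 ± 0.25, ghrelin (Ghrl) at -3.02 ± 0.37 and adrenomedullin (Adm) at 2.57 ± 0.52. Of 4 tested hormone receptors 0 passed in either fit. These lists cover the same libraries as the members, so their counts are not separate evidence.

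Of the progenitor and Notch genes, 1 of 10 tested rose in pooled KO crypts. It was Spdef, a factor of goblet and Paneth cell maturation, at 19.4 ± 9.52 CPM in KO and 8.83 ± 3.61 CPM in WT (1.13 ± 0.36). Within the upper run Spdef (1.56 ± 0.39) and Notch2 (0.57 ± 0.18) rose and Notch1 (-0.85 ± 0.30) fell. Genes named in these lists without an adjusted p passed in edgeR at values from 1.16e-05 to 0.0433.

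Markers of other epithelial cells moved with the hormone genes in the upper run. There, 5 of 5 Paneth markers, 5 of 6 enterocyte markers, 4 of 5 tuft markers, 4 of 5 stem cell markers and 3 of 6 goblet markers fell, and 0, 0, 0, 0 and 1 rose. These counts stand beside 41.1% of all genes called in that run, 21.3% as lower and 19.8% as higher. The summed CPM of the 10 enteroendocrine genes was 173 to 258 in KO and 382 to 584 in WT. For stem cell markers it was 23.3 to 37.5 in KO and 864 to 1949 in WT, for Paneth markers 6956 to 11163 in KO and 31390 to 77581 in WT, and for enterocyte markers 1749 to 4372 in KO and 9517 to 17989 in WT. Over all crypt libraries, most of the mean stem cell sum was Olfm4, at 366 CPM in KO and 1387 CPM in WT. Tuft markers overlapped in their sum, at 33.5 to 51.5 in KO and 33.2 to 61.3 in WT. Goblet markers summed to 3837 to 4676 in KO and 6077 to 8676 in WT, and pan-epithelial markers (Epcam, Cdh1, Krt8 and Vil1) to 8586 to 9367 in KO and 3855 to 6093 in WT. By gene, 2 of these 4 rose and 1 fell in the upper run. Krt8 was the largest part of the sum, at 4732 CPM in KO and 2302 CPM in WT over all crypt libraries. Vil1 went the other way, at 1099 CPM in KO and 1542 CPM in WT. The sum of 5 immune markers was 341 to 798 in KO and 1944 to 5205 in WT, most of it Cd74 and Lyz2. By gene, 2 of the 5 fell and 1 rose in the upper run. The pan-leukocyte marker Ptprc averaged 7.27 CPM in KO and 7.26 CPM in WT over all crypt libraries. Of 7 stroma and muscle markers, 2 rose in the upper run (Pdgfra and Col1a1), and the list summed to 1.86 to 22.6 in KO and 0.486 to 5.62 in WT, which overlapped. The part of these changes in the values of the hormone genes was not tested.

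**Figure D3:**
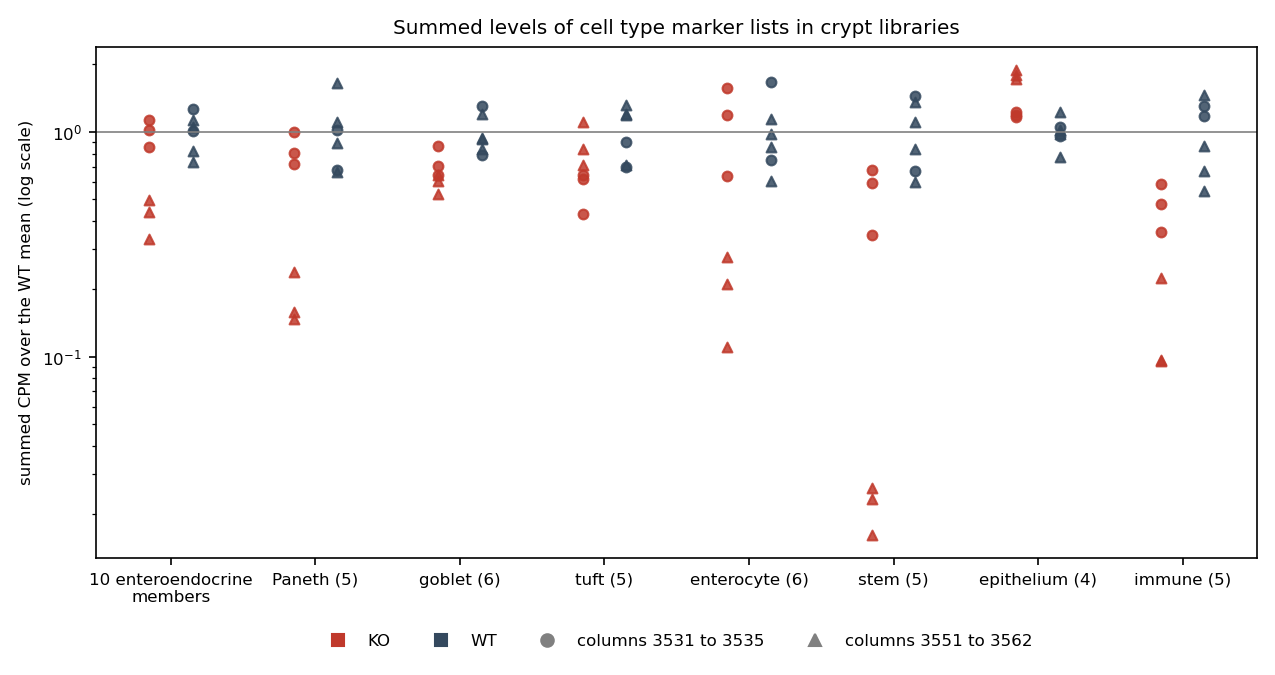
Summed CPM of the 10 enteroendocrine genes and of 7 marker lists (number of genes in brackets) in each crypt library, divided by the mean of the WT libraries, on a log axis; KO left, WT right, symbols as for the column runs. KO triangles lie below WT for the enteroendocrine, Paneth, goblet, enterocyte, stem and immune sums and above WT for the epithelium sum.

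In the lower run, enteroendocrine genes summed to 443 to 588 in KO and 526 to 654 in WT. Stem cell markers there summed to 499 to 972 in KO and 961 to 2076 in WT, a sum with a large part from Olfm4. By gene, 0 of 5 stem cell markers passed in the lower run, and their median log2 fold change was 0.065. Immune markers summed to 1287 to 2095 in KO and 4201 to 4647 in WT. Tac1 and Chgb are also expressed by enteric neurons. Vip, a gene of those neurons, had at most 0.0326 CPM in KO and 0.0592 CPM in WT. The whole list of 8 neuronal markers summed to 0.819 to 7.43 CPM in KO and 0.735 to 1.76 CPM in WT, of which Ret, also expressed outside neurons, gave up to 7.16 CPM in KO and 1.12 CPM in WT.

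Per kilobase of annotated exon, the order of levels in WT crypts was Gip (99.5 CPM per kb), Chgb (79.4), Gcg (59.4), Sct (55.4), Sst (47.2), Chga (12.1), Tac1 (8.54), Pyy (7.13), Neurod1 (2.71) and Cck (0.514). Neighbours in this order overlapped in their library ranges except at 3 steps, from Sst to Chga, from Pyy to Neurod1 and from Neurod1 to Cck. In KO crypts the order began with Chgb (63.7 CPM per kb), Sct (60.8), Gip (45.0), Gcg (33.6) and Sst (26.0), and each pair of neighbours in it overlapped. The hormone with the highest level in WT was thus below Chgb and Sct in KO.

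Genes most like the members were ranked by the correlation, over the 12 crypt libraries, of their deviation from the genotype mean with the average deviation of the members. Of 12252 genes ranked, the 8 highest were Ndufs3 (Pearson r 0.976), Ghrl (0.964), Tnfsf13 (0.962), Susd2 (0.954), Mtfp1 (0.952), Aqp1 (0.950), Slc35f2 (0.948) and Cyp2b10 (0.945). Ghrl, the ghrelin gene, was the 1 enteroendocrine gene among them. KO columns 4 to 6 stand apart, and each of the 8 values was lower without KO columns 4 to 6. Over the 9 libraries left, r was 0.854 for Ndufs3, 0.791 for Ghrl, 0.438 for Aqp1 and between these for the other 5. Between pairs of members in those 9 libraries the median r was 0.38, with a range from -0.38 to 0.93. These are descriptions over libraries that differ in depth.

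In spheroids the hormone genes were at much lower levels, and 0 of the 8 members tested passed between KO and WT, where 0.232% of 15915 genes were called. The edgeR adjusted p-values ran from 0.340 to 0.937. DESeq2 and voom also called 0, and 1 member, Sct, had an unadjusted edgeR p below 0.05. The 8 log2 fold changes were each above 0, with a median of 0.61 beside -0.002 over all genes. Without KO replicate 3, which had the highest Chga, Chgb, Tac1, Cck, Gcg and Neurod1, those of Chga (-0.06), Chgb (-0.06) and Neurod1 (-0.35) were below 0. Sct had 3.53, 4.38, 4.34 and 3.31 CPM in KO, against 3.62, 3.29, 2.46 and 1.94 CPM in WT (0.47 ± 0.21). Chgb had 4.91, 7.93, 20.7 and 8.40 CPM in KO, against 6.29, 7.45, 9.71 and 6.16 CPM in WT (0.50 ± 0.41). Both genes overlapped between the groups.

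Cck, the hormone of I cells, had 0.593, 2.18, 3.39 and 0.838 CPM in KO spheroids, against 1.34, 1.76, 0.487 and 0.707 CPM in WT spheroids (0.73 ± 0.59). Gcg ranged from 0.198 to 1.30 CPM in KO and from 0.154 to 0.763 CPM in WT. Gip ranged from 0.231 to 1.17 CPM in KO and from 0.0922 to 0.836 CPM in WT, and both genes overlapped between groups. Sst and Pyy were below the filter on low counts. Sst had 0, 0, 10 and 2 reads in KO, against 6, 2, 0 and 0 reads in WT, and Pyy had 14, 14, 10 and 0 reads in KO, against 4, 10, 2 and 0 reads in WT. At these counts a difference was not detectable. In the 5 lists of other hormones, lineage factors, granule genes, serotonin genes and sensors, 0 of 6, 15, 22, 8 and 4 tested genes passed. Sox4, a progenitor factor, was at 253.5 ± 21.4 CPM in KO and 172 ± 23.2 CPM in WT (0.56 ± 0.10, edgeR adjusted p = 0.0749).

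**Figure D4:**
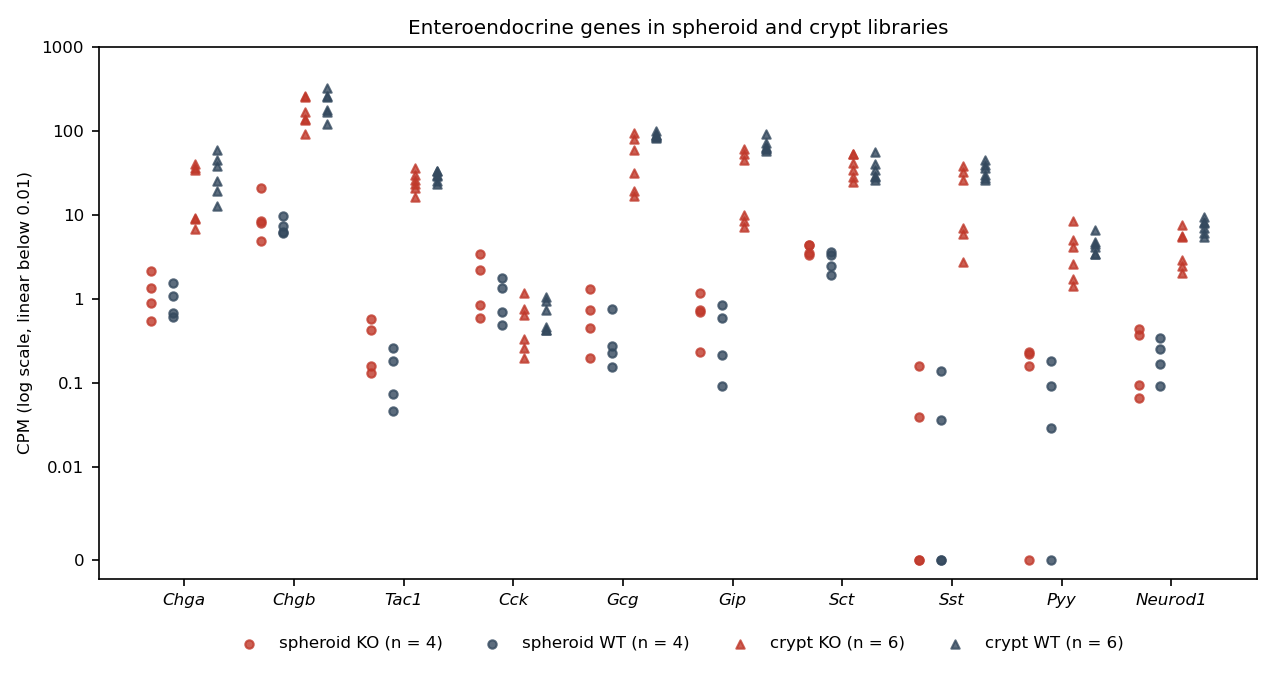
CPM of the 10 genes in spheroid (circles) and crypt (triangles) libraries of KO (red) and WT (dark) mice, on an axis that is logarithmic above 0.01 CPM and linear below, scaled within each kind of sample. For 9 genes the spheroid points lie below the crypt points of the same genotype, and for Cck they overlap.

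WT spheroids differed from WT crypts in 9 of 10 members, each of them lower in spheroids, in a joint fit of 18485 genes in which 81.7% were called and 43.9% as lower. The median log2 fold change of the members was -6.07, beside -0.22 over all genes. On the joint scale Gcg averaged 0.282 ± 0.22 CPM in WT spheroids and 103.0 ± 8.08 CPM in WT crypts (log2 fold change -8.52 ± 0.73, edgeR adjusted p = 2.83e-09). Tac1 averaged 0.112 ± 0.079 CPM in WT spheroids and 33.7 ± 4.76 CPM in WT crypts (-8.13 ± 0.47, 2.87e-12). Of the 9, Sct had the smallest fall, at 2.24 ± 0.58 CPM in WT spheroids and 41.4 ± 12.4 CPM in WT crypts (-4.21 ± 0.29, 3.40e-11). Cck was the exception, at 0.850 ± 0.46 CPM in WT spheroids and 0.779 ± 0.32 CPM in WT crypts (0.11 ± 0.53, edgeR adjusted p = 0.853). The kind of sample, its preparation and its sequencing batch cannot be told apart here.

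Of the lineage factors, 5 were higher and 9 lower of 21 tested in WT spheroids. Sox4 (7.27 ± 0.45), Foxa1 (5.44 ± 0.28) and Foxa2 (3.76 ± 0.32) were higher, and Isl1 was lower (-6.01 ± 0.51). Sensors were lower in 14 of 17, among them Gpr119, a lipid receptor of L cells that had 0 counts in the 4 WT spheroid libraries. The per-kilobase order in WT spheroids began with Sct (4.38 CPM per kb), Chgb (2.70) and Cck (0.822), and the other 7 members lay from 0.0413 (Tac1) to 0.634 (Gip). The 1 pair of neighbours whose library ranges did not overlap was Chgb and Cck.

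Whether the KO effect differed between crypts and spheroids was tested as an interaction in the same fit. It passed for 0 of 10 members by edgeR, where 2.86% of genes were called, and 2 members (Tac1 and Gcg) had an unadjusted p below 0.05. DESeq2 called 0, and voom called 2, Gcg (-2.46, adjusted p = 0.0381) and Gip (-3.55, adjusted p = 0.0111). The median difference was -1.19 on the log2 scale, beside 0.05 over all genes. Of the other lists Ffar4 was called, at 4.10 ± 1.01 (edgeR adjusted p = 0.0382).

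In Caco-2 most of these genes were at or near 0. TAC1 and SST had 0 counts in each of the 6 libraries, which allows up to 0.0805 CPM in a single library at the least deep of them (3 counts). CHGB and GIP passed the filter on low counts, and 0 of these 2 differed between shFgfr1op and scramble, where 31.9% of 18905 genes were called. At an unadjusted p below 0.05 there were 0, and DESeq2 and voom also called 0. CHGB had 0.682, 0.792 and 0.927 CPM in shFgfr1op, against 1.05, 0.738 and 0.824 CPM in scramble (-0.11 ± 0.34, edgeR adjusted p = 0.857). GIP had 0.472, 0.422 and 0.203 CPM in shFgfr1op, against 0.268, 0.638 and 0.260 CPM in scramble (-0.12 ± 0.51, edgeR adjusted p = 0.892). The groups overlapped for both.

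SCT had 0, 4 and 4 reads in shFgfr1op, against 3, 23 and 18 reads in scramble. It passed when no filter on low counts was used (log2 fold change -2.21, edgeR adjusted p = 0.0406) and in 3 of the 6 fits that left out a library. CCK had 0, 4 and 6 reads in shFgfr1op, against 12, 6 and 11 reads in scramble, and PYY had 0, 2 and 2 reads in shFgfr1op, against 2, 4 and 5 reads in scramble. PYY was the 1 member whose CPM did not overlap between the groups, with a highest value of 0.0528 CPM in shFgfr1op and a lowest of 0.0536 CPM in scramble. Of the genes tested, which leave out PYY, 42.4% did not overlap, and 21.5% did so as lower. CHGA had 1, 0 and 0 reads in shFgfr1op, against 2, 8 and 1 reads in scramble. GCG had 0 reads in shFgfr1op and 0, 0 and 4 reads in scramble, and NEUROD1 had 0 reads in shFgfr1op and 0, 0 and 1 read in scramble. Such counts show neither a change nor its absence.

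Some regulators, granule genes and serotonin genes changed in Caco-2, where 31.9% of all genes were called, a share that the counts of the lists are to be read beside. Of 12 tested lineage factors 2 rose and 2 fell. PROX1 was at 20.3 ± 3.01 CPM in shFgfr1op and 9.57 ± 1.37 CPM in scramble (1.09 ± 0.11), MYT1 rose by 1.22 ± 0.17 on the log2 scale, and RFX6 fell by 0.81 ± 0.25. Of 20 granule genes 3 rose and 4 fell, with PCSK1N, an inhibitor of prohormone convertase, at -0.70 ± 0.041. Of 7 serotonin genes 2 rose and 1 fell. DDC, the decarboxylase that makes serotonin and dopamine, was at 68.7 ± 3.20 CPM in shFgfr1op and 113 ± 2.81 CPM in scramble (-0.72 ± 0.041). MAOB rose by 1.15 ± 0.13 and SLC6A4 by 0.39 ± 0.11. The edgeR adjusted p-values of these genes ran from 5.14e-19 (DDC) to 0.00882 (RFX6). No label says that the Caco-2 libraries came from separate cultures, so the p-values measure the spread between these libraries, which may be technical.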

How the data were processed

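RNA was sequenced from 26 libraries. Read counts per gene, not normalized, were made by the authors and deposited as 1 table per system. STAR, DESeq2 and mm10 are named per the submitters' processing notes, without versions or roles. The Caco-2 table carries human gene identifiers, and its build and annotation are not given in the sources used here. Repeated entries (276 per mouse table, 116 in Caco-2) were identical and were counted once.

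Genes were filtered with filterByExpr, scaled by TMM and tested with edgeR 4.0.16 (quasi-likelihood, robust; R 4.3.3), with Benjamini-Hochberg adjustment over all genes tested and a threshold of 0.05. Each system had its own fit, and 1 joint fit of both mouse tables gave the contrasts between systems. Standard errors come from the fold change and its F statistic. DESeq2 1.42.0 and limma 3.58.1, other filters and scalings, and fits without 1 library were alternatives. Levels per kilobase used mm10 exon lengths, and limits at 0 used 3 counts and cover counting error only. Fits were tested on simulated counts.

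The 10 genes and all gene lists were chosen with earlier results of these data known. Within each enteroendocrine list, up to 4 called genes of smallest p were named per comparison, or 2 where 0 were called, except where the text singles out another. The splits and fits by crypt column numbers were chosen after the data were seen. Same-numbered spheroid and Caco-2 libraries did not deviate together, so the numbers were not used as pairs. Some single-gene results are not reported here.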

Additional observations from a re-analysis of the deposited data

Results flagged for a closer look

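The effect of KO on Gip, Gcg and Sst differed between the runs of crypt column numbers by the test of the difference itself. On the log2 scale the upper minus the lower run was -2.34 for Gip, -1.79 for Gcg and -2.21 for Sst (edgeR adjusted p = 1.63e-04, 0.00406 and 0.00483). The lower run holds 3 KO and 2 WT libraries and the upper run 3 KO and 4 WT libraries. The split was chosen after the data were seen, and what the numbers stand for was not tested.

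Gcg in WT crypt column 3, at 100.2 CPM, lay apart from the other 5 WT columns, which were at 83.0 to 89.0 CPM. It was the 1 library so found in 40 groups of values, where chance gives about 1 in 20.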

How the results depend on the processing

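In pooled crypts the count of members called, 0 with edgeR, was 2 with DESeq2, 7 with voom, 7 in the upper run, 5 with the run as a term, and 0 to 2 when 1 library was left out (2 without KO column 3). The interaction of KO with system had 2 with voom, against 0 with edgeR. In Caco-2 it was 1 without the filter on low counts (SCT) and 0 to 1 when 1 library was left out. The causes were not tested. The upper-run count of 7 stayed between 6 and 8 when 1 library was left out.

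Several log2 fold changes, of which 0 had passed, turned sign. With KO columns 1 to 3 against all WT columns, Chga was at 0.14, Chgb at 0.068, Tac1 at 0.076, Cck at 0.36 and Pyy at 0.38. Pyy was at 0.040 in the lower run. Sct was at -0.14 in the upper run and -0.0018 with the run as a term. When 1 library was left out, Sct ranged from -0.0076 to 0.28 in crypts (lowest without KO column 3) and from -0.28 to 0.021 in the upper run (highest without WT column 3). Chga ranged from -0.058 to 0.67, Chgb from -0.065 to 0.74 and Neurod1 from -0.35 to 0.46 in spheroids, each lowest without KO replicate 3. Neurod1 was also at -0.13 without KO replicate 4 and -0.088 without WT replicate 1. CHGB ranged from -0.22 to 0.039 and GIP from -0.35 to 0.45 in Caco-2, and GIP was at 0.18 without shFgfr1op replicate 3. Cck in WT spheroids over WT crypts was at -0.16 with voom. Under all alternatives 502 single-gene values kept their direction and side of the threshold, 19 turned sign, 30 newly passed and 7 no longer passed.

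With the replicate number as a block, 0 members passed in spheroids (71 genes in all, against 37 without it) and 0 in Caco-2 (5904 against 6031). The correlations of same-numbered libraries were -0.03 to 0.10 in spheroids and 0.003 to 0.04 in Caco-2. No paired analysis was possible for crypts because the columns carry no label that pairs them. A filter of 1 CPM left 0 members to test in Caco-2, where 8 of 10 members were below the main filter.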
